A study of Homo sapiens with 12 samples.

Results

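The genes described are 34 genes of homologous recombination and the Fanconi anaemia pathway, chosen by name from the 19460 genes of the RNA table. All 34 were found there, each in 1 row. They were measured in T-47D, an established oestrogen receptor positive breast cancer line of luminal epithelial cells that the RNA labels give as wild type. The cells received 1 µM palbociclib, an inhibitor of the cell cycle kinases CDK4 and CDK6, or its solvent DMSO for 24 h. RNA sequencing and ATAC-seq, which reads how open chromatin is to a transposase, were each run on 3 libraries per treatment. All groups share the line and the time, and a single line limits what the data can say of other tumours.

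Homologous recombination repairs a broken chromosome by copying the sister chromatid, which exists only after replication. Nucleases first cut back the DNA ends, mediators such as BRCA2 then load the strand-exchange recombinase onto the single strand, and helicases and translocases carry the exchange through and take the joined molecules apart. The Fanconi pathway handles DNA strands linked to each other: a core ubiquitin ligase with its partner enzyme UBE2T marks the pair FANCD2 and FANCI, and repair then passes to recombination.

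Promoter sequences are shown first, because members that fell and members that did not can be set side by side there. For 30 of the 34 members the RefSeq promoter table (GRCh38.p14, 250 bases before to 50 bases after each listed start) holds a window, and FANCI, RMI2, DNA2 and RAD54B have none. Windows were searched on both strands for 4 motifs. The E2F-type letters were TTTGGCGC or TTTCGCGC or TTTGCCGC or TTTCCCGC or GGCGGGAA. They were found in 14 of the 30 members (46.7%) and in 6.7% of all 27305 genes with a window. That background was not limited to genes expressed here, as all members were, and its part in the motif shares was not tested. The CHR element, TTTGAA or TTCGAA, was found in 5 members (16.7%), against 19.5% of all genes. CCAAT was found in 12 members (40.0%), against 39.7% of all genes. The GC box GGGCGG was found in 22 members (73.3%), against 48.3% of all genes, and its letters can overlap GGCGGGAA. A match is a description of letters and not a bound site, and a miss of these exact letters is not the absence of a site.

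The stretches below end at the base before a listed start, are written 5′ to 3′ on the gene's strand, and carry the E2F-type letters in capitals. BLM, RAD51AP1 and RAD54L are shown as members whose RNA fell and that hold those letters. BRCA1 and FANCM fell and lack them in this window, FANCF was not called changed and lacks them, and RAD52 was called higher and holds them. The stretches cover chr15:90717246-90717345 (plus strand), chr12:4538790-4538889 (plus), chr1:46247588-46247687 (plus), chr17:43125365-43125464 (minus), chr14:45135830-45135929 (plus), chr11:22625824-22625923 (minus) and chr12:949695-949944 (minus).
BLM: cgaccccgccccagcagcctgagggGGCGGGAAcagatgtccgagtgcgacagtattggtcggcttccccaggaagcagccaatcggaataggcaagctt
RAD51AP1: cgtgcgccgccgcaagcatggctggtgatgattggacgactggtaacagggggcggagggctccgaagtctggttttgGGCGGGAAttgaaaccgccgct
RAD54L: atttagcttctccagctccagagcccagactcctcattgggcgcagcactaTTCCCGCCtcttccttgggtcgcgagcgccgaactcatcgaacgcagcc
BRCA1: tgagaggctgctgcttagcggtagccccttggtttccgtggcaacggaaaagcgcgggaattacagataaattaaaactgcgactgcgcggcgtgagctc
FANCM: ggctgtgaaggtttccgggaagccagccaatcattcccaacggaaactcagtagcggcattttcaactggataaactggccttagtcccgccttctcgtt
FANCF: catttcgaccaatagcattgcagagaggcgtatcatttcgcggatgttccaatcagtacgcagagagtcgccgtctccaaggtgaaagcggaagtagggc
RAD52: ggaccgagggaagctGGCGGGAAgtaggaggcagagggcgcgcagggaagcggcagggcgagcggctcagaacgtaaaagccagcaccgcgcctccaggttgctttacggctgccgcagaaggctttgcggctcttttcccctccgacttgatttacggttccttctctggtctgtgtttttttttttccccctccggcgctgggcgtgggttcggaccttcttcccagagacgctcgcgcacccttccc
In BLM the printed letters begin 75 bases before the start, in RAD54L 49, in RAD51AP1 22 and in RAD52 235. Among the 14 members with the letters the median log2 RNA change was -2.16 (range -3.41 to 0.28), and among the 16 without them -1.20 (range -2.75 to 0.22), so the ranges overlapped. The members with the letters included both EXO1, the largest fall, and RAD52, the largest rise.

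RNA of most of these genes was lower with palbociclib, and every role of the pathway held genes that fell. Levels are FPKM, reads scaled for gene length and library as deposited, given as mean ± SD of 3 libraries. Changes are log2 of FPKM + 1, palbociclib over DMSO, with the standard error (SE) and the limma p adjusted over all genes tested, and a gene was called at an adjusted p under 0.05. All 34 members passed the filter on low values, a mean FPKM of at least 0.5. Of them 33 were called in either direction, against 43.7% of all 15869 genes tested. Of these 31 fell, against 22.9% of all genes, and 2 rose, against 20.9%. FANCF was not called. The fall was 1 log2 unit or more in 26 members, against 3.04% of all genes. The median member change was -1.64, against 0 over all genes tested. No DMSO library overlapped a palbociclib library for the 31 members that fell, against 28.2% of all genes, nor for the 2 that rose, against 26.5%. Quantile normalization moved the split over all genes from 3628 lower and 3312 higher to 2857 lower and 4588 higher. For the members it gave 30 lower and 3 higher, with FANCF then called (log2 change 0.14, adjusted p = 0.0456).

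The level left with palbociclib ran from 4.2% of the DMSO level for EXO1 to 123% for RAD52. It was under 10% for 6 members, from 10% to under 25% for 12, from 25% to under 50% for 9 and from 50% to under 100% for 4. The other 3 members were at or above the DMSO level. With DMSO no member was under 1 FPKM in any library, and with palbociclib 6 members were under 1 FPKM in all 3 libraries. For such low levels the added 1 FPKM makes the log2 change smaller than the ratio of levels. BLM is an example, with -2.70 here and -4.47 in the authors' deposited table.

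**Figure D1:**
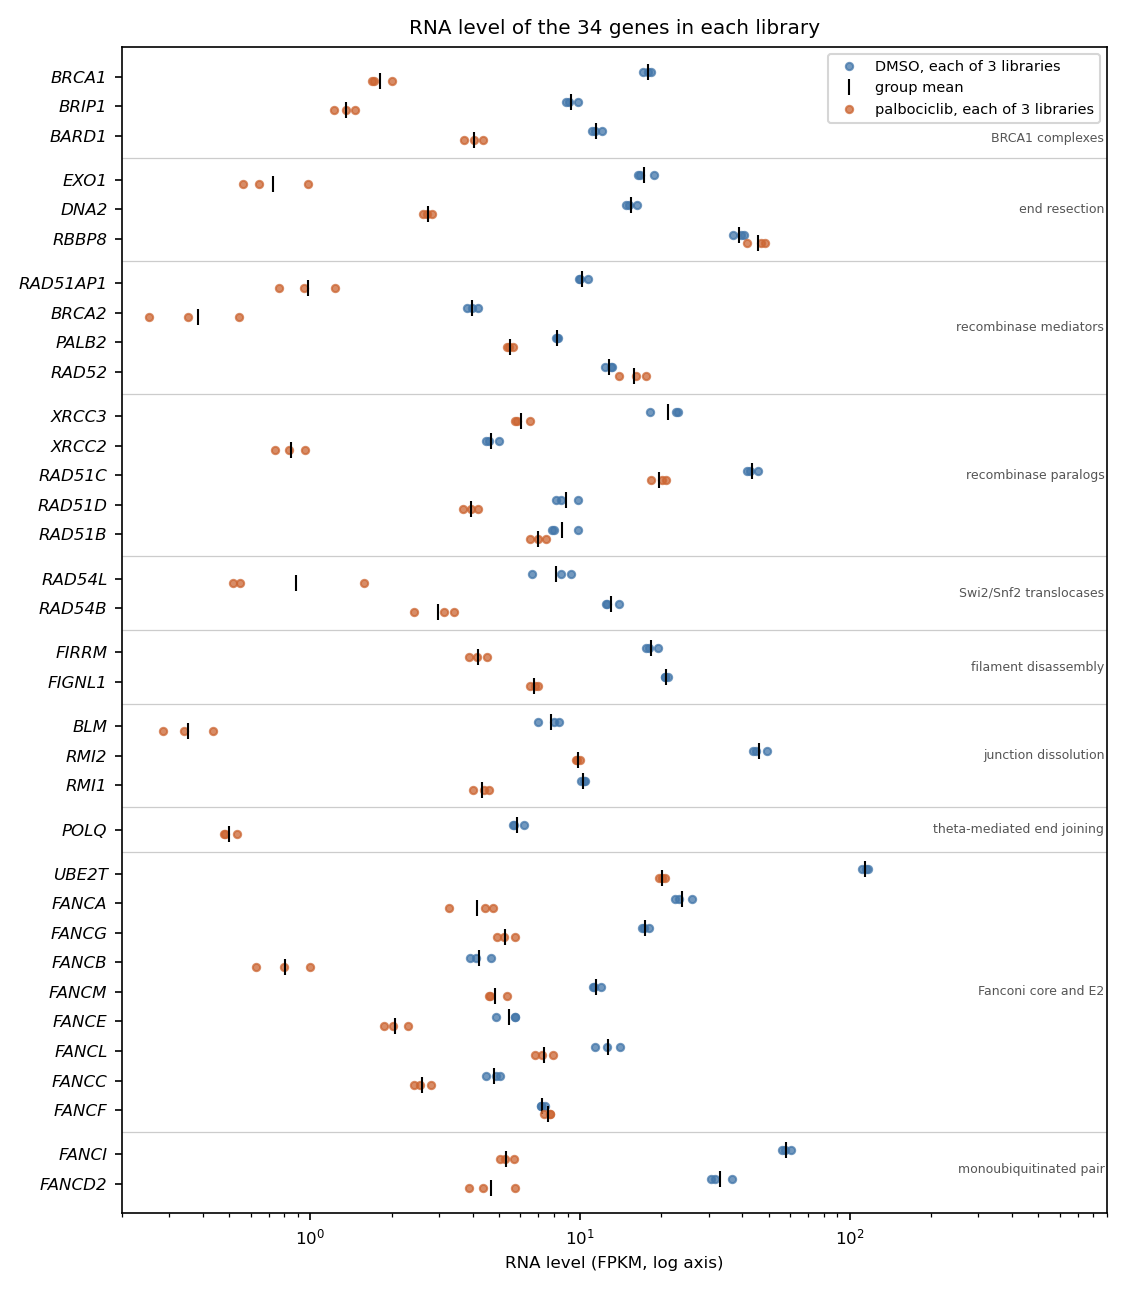
RNA level of the 34 genes in each of 6 libraries (horizontal log axis, FPKM), with genes grouped by role, 1 point per library and a bar at the group mean. The palbociclib points lie left of the DMSO points except for RBBP8, RAD52 and FANCF.

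Among the 3 genes of the BRCA1 complexes all fell. BRCA1, the ubiquitin ligase that directs ends into resection, stood at 17.9, 18.4 and 17.1 FPKM with DMSO and at 1.73, 1.70 and 2.00 with palbociclib, which left 10.1% (log2 change -2.75, SE 0.063, adjusted p = 6.3e-09). Its 3 palbociclib values sat close together and far below the DMSO values. BRIP1, the helicase that binds BRCA1, left 14.5% (9.27 ± 0.49 to 1.35 ± 0.12 FPKM). BARD1, the obligate partner of BRCA1 in the ligase, left more of its RNA, 35.1% (11.5 ± 0.54 to 4.03 ± 0.33 FPKM, log2 change -1.31, SE 0.066, adjusted p = 1.25e-06). The 2 subunits of the ligase thus stood at 17.8 and 11.5 FPKM with DMSO and at 1.81 and 4.03 FPKM with palbociclib, so their order by level was turned round.

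Of the 3 members of end resection, both long-range enzymes fell and RBBP8, a factor that starts resection, did not. Of the MRE11 complex, whose genes are not members, MRE11 was called lower (43.9% left). RAD50 and NBN were not called (99.2% and 91.9% left). EXO1, an exonuclease, stood at 18.8, 16.7 and 16.4 FPKM with DMSO and at 0.644, 0.561 and 0.976 with palbociclib (log2 change -3.41, SE 0.099, adjusted p = 3e-08), the largest fall among the members and the 24th largest of all 15869 genes. DNA2, a nuclease and helicase on the parallel route, left 17.7% (15.4 ± 0.80 to 2.72 ± 0.10 FPKM). RBBP8, known as CtIP, which starts resection with the MRE11 complex, stood at 40.4, 36.9 and 39.7 FPKM with DMSO and at 41.4, 46.7 and 48.7 with palbociclib. The lowest palbociclib value was just above the highest DMSO value, and the rise was small (log2 change 0.22, SE 0.062, adjusted p = 0.0216). That call was lost when DMSO replicate 2 was left out (adjusted p = 0.0746), and also on leaving out palbociclib replicate 2 (0.0704) or 3 (0.064).

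The 4 recombinase mediators split. BRCA2, which loads the recombinase onto single-stranded DNA, stood at 3.96, 3.80 and 4.19 FPKM with DMSO and at 0.251, 0.350 and 0.545 with palbociclib, which left 9.59% (log2 change -1.85, SE 0.094, adjusted p = 1.29e-06). It had the lowest mean of the members with DMSO. RAD51AP1, which helps the recombinase capture the partner DNA, left 9.63% (10.2 ± 0.42 to 0.98 ± 0.24 FPKM). PALB2, the bridge between BRCA1 and BRCA2, fell much less, from 8.14, 8.22 and 8.31 FPKM to 5.66, 5.44 and 5.34 (66.6% left, log2 change -0.51, SE 0.051, adjusted p = 8.25e-05). RAD52, a mediator known for single-strand annealing, stood at 13.1, 12.4 and 13.04 FPKM with DMSO and at 17.5, 16.1 and 13.9 with palbociclib (log2 change 0.28, SE 0.076, adjusted p = 0.0178). Its palbociclib libraries differed among themselves more than its DMSO libraries did. The RAD52 call was lost when DMSO replicate 2 was left out (adjusted p = 0.0599), and also on leaving out palbociclib replicate 1 (0.052) or 2 (0.0563).

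All 5 paralogs of the recombinase fell, over a wide range. They are known to form separate assemblies that steady the recombinase filament, one with RAD51B, RAD51C, RAD51D and XRCC2 and the other with RAD51C and XRCC3. XRCC2 left 18% (4.68 ± 0.27 to 0.84 ± 0.11 FPKM) and XRCC3 28.4% (21.3 ± 2.69 to 6.03 ± 0.43 FPKM). RAD51D left 44.4% (8.84 ± 0.88 to 3.92 ± 0.25 FPKM) and RAD51C, the member of both assemblies, 45.4% (43.4 ± 2.14 to 19.7 ± 1.29 FPKM). RAD51B was the least changed, at 9.82, 7.85 and 8.03 FPKM with DMSO and 6.55, 7.46 and 6.97 with palbociclib. Its log2 change was -0.25 (SE 0.086, adjusted p = 0.0423), and 1 DMSO library carried much of the difference, since without DMSO replicate 1 the adjusted p was 0.106. It was also lost without palbociclib replicate 1 (0.127) or replicate 3 (0.0882), with quantile normalization (0.14), without a filter on low values (0.0609) and without the intensity trend (0.0571).

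The members that act on the formed filament and on joined molecules all fell. RAD54L, a motor protein that drives strand exchange, stood at 9.26, 8.49 and 6.66 FPKM with DMSO and at 0.546, 0.515 and 1.58 with palbociclib (log2 change -2.32, SE 0.205, adjusted p = 4.23e-05). Palbociclib replicate 3 was the high one, and without it the level left was 6.52% in place of 10.8%. For no other member did leaving out 1 library move the level left by over 1.5 times. RAD54B, its relative, left 22.9% (13.01 ± 0.80 to 2.98 ± 0.50 FPKM). FIGNL1 and FIRRM, partners that remove the recombinase from DNA, left 32.5% (20.8 ± 0.28 to 6.76 ± 0.22 FPKM) and 22.8% (18.3 ± 0.99 to 4.18 ± 0.32 FPKM). BLM, the helicase that takes apart double Holliday junctions with its partners, stood at 8.34, 8.01 and 6.98 FPKM with DMSO and at 0.284, 0.339 and 0.434 with palbociclib. This left 4.53% (log2 change -2.70, SE 0.085, adjusted p = 4.88e-08). Its partners RMI2 and RMI1 left 21.3% (46.1 ± 3.00 to 9.80 ± 0.16 FPKM) and 42.2% (10.3 ± 0.19 to 4.34 ± 0.30 FPKM). POLQ, the polymerase of the alternative end-joining route that competes with recombination for resected ends, left 8.54% (5.84 ± 0.31 to 0.50 ± 0.03 FPKM, log2 change -2.19, SE 0.069, adjusted p = 5.14e-08).

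The 9 genes of the Fanconi core ligase and its partner enzyme ran from a deep fall to no call. UBE2T, the ubiquitin-conjugating enzyme, was the most abundant member with DMSO, at 117, 111 and 115 FPKM, and stood at 19.6, 20.7 and 20.1 with palbociclib (17.6% left, log2 change -2.45, SE 0.036, adjusted p = 6e-10). FANCL, the ligase subunit that UBE2T works with, left 57.9% (12.7 ± 1.40 to 7.34 ± 0.58 FPKM, log2 change -0.71, SE 0.084, adjusted p = 0.000231). FANCB, which sits with FANCL in the catalytic part of the core, left 19% (4.23 ± 0.41 to 0.81 ± 0.18 FPKM). FANCA and FANCG, which form another part of the core, left 17.4% (23.9 ± 1.86 to 4.16 ± 0.79 FPKM) and 30.3% (17.4 ± 0.55 to 5.28 ± 0.41 FPKM). The third part holds FANCC, FANCE and FANCF. FANCE left 37.9% (5.45 ± 0.49 to 2.06 ± 0.22 FPKM) and FANCC 53.9% (4.80 ± 0.28 to 2.59 ± 0.19 FPKM). FANCF, the adaptor of the core, stood at 7.14, 7.41 and 7.17 FPKM with DMSO and at 7.71, 7.71 and 7.33 with palbociclib, so its groups overlapped (log2 change 0.06, SE 0.050, adjusted p = 0.385). FANCM, the translocase that anchors the core to DNA, left 42.3% (11.5 ± 0.45 to 4.85 ± 0.43 FPKM).

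Both targets of the ligase were among the deeper falls. FANCI stood at 57.7, 56.1 and 60.6 FPKM with DMSO and at 5.05, 5.67 and 5.27 with palbociclib (9.16% left, log2 change -3.22, SE 0.051, adjusted p = 7.67e-10). FANCD2 stood at 31.7, 36.6 and 30.5 FPKM with DMSO and at 5.75, 3.86 and 4.36 with palbociclib (14.1% left, log2 change -2.59, SE 0.119, adjusted p = 6.62e-07). The 2 genes therefore kept their order in all 6 libraries but 1, palbociclib replicate 1, where FANCD2 was the higher.

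**Figure D2:**
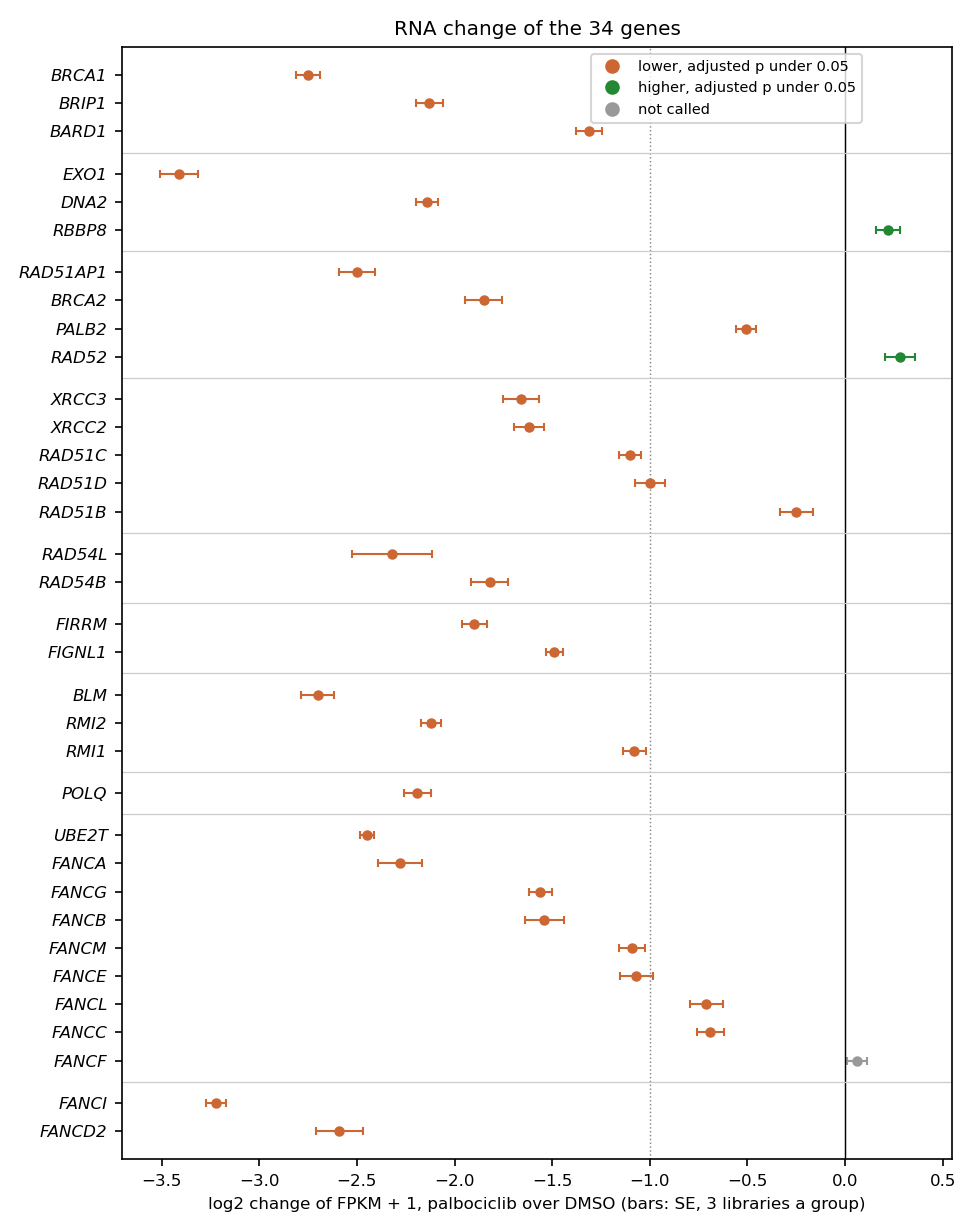
Change of each of the 34 genes (horizontal axis, log2 of FPKM + 1, palbociclib over DMSO, bars are the SE, 3 libraries a group) in the same order of roles, with a dotted line at -1. Within their roles BARD1, RAD51B and FANCF lie furthest right, and RBBP8 and RAD52 lie right of 0.

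Other genes of these pathways, taken from lists chosen with earlier results of these data known, fell in part. Of 61 other recombination and crosslink repair genes 59 were tested, 37 fell and 7 rose, against 22.9% lower and 20.9% higher over all genes tested. In this list 15 fell by 1 log2 unit or more, against 3.04% of all genes, and the median was -0.30. The 15 were MND1 and PSMC3IP, partners in strand exchange (6.19% and 19.8% left), HROB and MCM8, which act in DNA synthesis after exchange (11.7% and 26.3%), and the resolvase genes EME1 and GEN1 (14.9% and 17.5%). They also held PARPBP, a restrainer of recombination (16.9%), TONSL and MMS22L, partners at stalled forks (19.7% and 19.4%), and TRAIP, a ligase at stalled forks (19.4%). The rest were SFR1 (31.3%), USP1, which removes the mark from FANCD2 (36.3%), RAD18 (41.4%), MRE11 (43.9%) and RPA3 (47.1%). EME2 had the largest rise (13.6 ± 1.85 to 21.9 ± 1.49 FPKM, log2 change 0.66, SE 0.092, adjusted p = 0.000587). EME1 and EME2, which pair with the same nuclease, MUS81, therefore moved in opposite directions. Against those 7 rises, 3 were called on leaving out DMSO replicate 1, and 3, 3 and 4 on leaving out palbociclib replicate 1, 2 or 3. Of 17 end-joining and resection-limiting genes 16 were tested, 8 fell and 3 rose, against the same 22.9% and 20.9% of all genes. Among them 0 fell by 1 log2 unit or more, and the median was -0.31. In neither list was the share that rose above that of all genes. LIG4, the ligase of classical end joining, had the largest rise (6.89 ± 0.36 to 8.70 ± 0.35 FPKM, log2 change 0.30, SE 0.057, adjusted p = 0.00338).

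Cell cycle genes moved with the members. All 12 S phase genes fell (median -2.77), against 22.9% of all genes. The level left was 1.48% for RRM2 and 4.9% for TYMS, which make DNA precursors, and 5.08% for the cyclin CCNE2. It was 15.4%, 17.2%, 13.2% and 20.4% for the helicase subunits MCM2, MCM4, MCM5 and MCM6. For the helicase loaders CDC6 and CDT1 and its partners CDC45 and GINS2 it was 10.1%, 11.5%, 6.52% and 12.9%, and for the sliding clamp PCNA 16.2%. All 12 genes of G2 and mitosis fell too, against the same 22.9% (median -2.99), from 4.72% left for AURKB to 15.3% for CCNB1. Between these lay MKI67 (5.26%), PLK1 (8.22%), BUB1 (8.45%), CDK1 (8.84%), TOP2A (9.54%), KIF11 (11.2%), CDC20 (11.8%), TTK (13.7%), CCNB2 (13.9%) and CENPF (14.5%). Relative to the DMSO mean, the median over the 34 members was -1.59, -1.71 and -1.66 in palbociclib replicates 1 to 3, and the S phase median was -2.77, -2.62 and -2.83 in the same libraries. The part of the cell cycle in the members' change was not tested, and in bulk RNA fewer cells of a type and less RNA per cell cannot be told apart. Of 9 luminal epithelial markers 8 rose, against 20.9% of all genes. PGR, the progesterone receptor, had the largest rise, from 82.0 ± 1.62 to 124 ± 5.21 FPKM (log2 change 0.59). The remaining marker, EPCAM, was not called (log2 change -0.14, limma adjusted p = 0.0544). Of 8 markers of other cell types 3 were in the table and 1 passed the filter, with no call. That gene, the collagen COL1A1, was expressed in both groups (23.65 ± 0.58 and 25.12 ± 1.17 FPKM). Palbociclib replicate 3 held the highest of the 3 palbociclib values for 16 of the 34 members (47.1%), against 33.3% of all genes tested. In the cell cycle lists other libraries were highest most often: palbociclib replicate 2 for 8 of 12 S phase genes (replicate 3 for 3, replicate 1 for 1) and palbociclib replicate 1 for 9 of 12 genes of G2 and mitosis (replicate 2 for 2, replicate 3 for 1). Replicate 3 had the lowest median of the palbociclib libraries in both lists, -2.83 and -3.04.

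**Figure D3:**
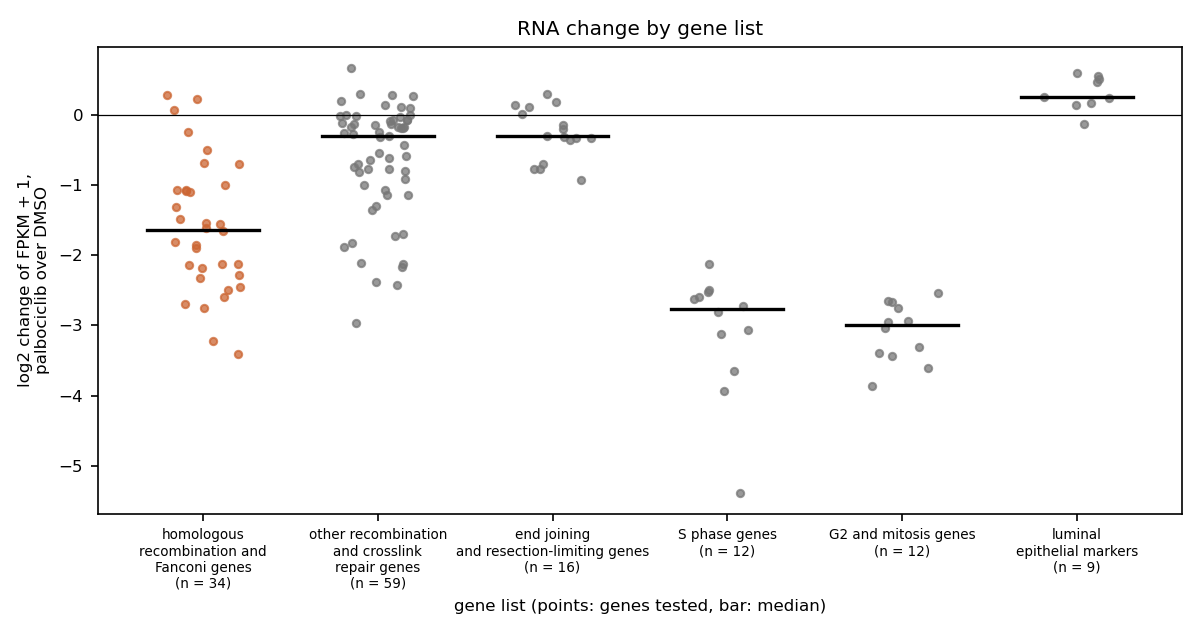
Change of each tested gene by list (vertical axis, log2 of FPKM + 1, palbociclib over DMSO, points are genes, bars are medians). The 34 members spread from -3.41 to 0.28. Their median lies between the medians of the cell cycle lists and those of the other repair lists, and their points overlap with both.

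The ATAC libraries held 12830062 to 18250496 counts each in 38121 peaks shared by all libraries. Of the 34 members 19 had a peak within 1000 bases of a listed start, 1 each, and levels are counts scaled to library size (CPM). Of these 19 peaks 8 were called lower by the edgeR quasi-likelihood test with adjustment over all peaks, against 6.46% of all peaks and 11.3% of the 7234 peaks at any start. None was called higher (0 also at an unadjusted p under 0.05 and by DESeq2), against 5.41% of all peaks and 1.78% of start peaks. The median change was -0.21 log2 units, against medians of 0.004 over all peaks and -0.05 over start peaks. Values below 0 were found for 18 of the 19 peaks, against 18693 of all 38121 peaks and 4843 of the 7234 start peaks. Scaling by library totals changed the split over all peaks from 2464 lower and 2061 higher to 2030 and 2573, and gave 8 lower member peaks. In size each of the 19 log2 changes was smaller than the RNA change of its gene.

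DNA2 had the largest fall. Its peak at chr10:68471408-68472354 (GRCh38, as are the peaks below), which lies inside the gene just downstream of the listed start at 68472521, stood at 57.7, 56.0 and 58.6 CPM with DMSO and at 31.3, 33.6 and 32.9 with palbociclib (log2 change -0.82, adjusted p = 1.66e-14). The 2 groups were far apart. BRIP1 (chr17:61862994-61863962) stood at 87.7, 86.0 and 90.4 CPM and at 64.2, 68.1 and 65.8 (log2 change -0.41, adjusted p = 1.21e-07). BLM (chr15:90716797-90717774), whose E2F-type letters lie inside this peak, stood at 105.4, 101.3 and 117.6 CPM and at 79.3, 84.1 and 88.5 (log2 change -0.36, adjusted p = 2.09e-06). For both genes the lowest DMSO value was above the highest palbociclib value. RAD54B (chr8:94474637-94475632) went from 81.0 ± 5.68 to 63.4 ± 1.67 CPM (log2 change -0.35), FANCM (chr14:45135709-45136305) from 39.2 ± 1.33 to 31.6 ± 2.66 (-0.31) and RAD54L (chr1:46246949-46247913) from 82.9 ± 3.78 to 70.3 ± 2.66 (-0.24). FANCE (chr6:35452004-35452754, 53.8 ± 2.10 to 45.9 ± 2.96 CPM, log2 change -0.23) had an adjusted p of 0.0163. Leaving out DMSO replicate 1 gave 0.0803, and leaving out palbociclib replicate 1 or 2 gave 0.107 or 0.0628. EXO1 (chr1:241847705-241848587, 73.7 ± 5.59 to 63.6 ± 2.80 CPM, log2 change -0.21) had an adjusted p of 0.0146, and 0.165 without DMSO replicate 3 or 0.108 without palbociclib replicate 1.

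The other 11 peaks were not called. XRCC2 came nearest (34.9 ± 1.24 and 29.9 ± 0.60 CPM, log2 change -0.22, adjusted p = 0.0537), and RAD51AP1 had the same log2 change (-0.22, adjusted p = 0.113) on fewer counts. For FANCI, whose RNA fell to 9.16%, the peak stood at 87.9 ± 2.00 and 81.1 ± 2.21 CPM (-0.12, adjusted p = 0.169). For FANCD2 the values were 19.7 ± 1.83 and 18.1 ± 1.01 CPM (-0.11), for FIRRM 75.2 ± 5.90 and 69.1 ± 2.61 (-0.12), and for XRCC3, the strongest peak of all 19, 274 ± 7.45 and 257 ± 7.58 (-0.09). BARD1 and RAD51C were each at -0.07 and PALB2 and RAD52 each at -0.04. FANCB stood at 145, 135 and 132 CPM with DMSO and at 147, 143 and 150 with palbociclib (log2 change 0.10, adjusted p = 0.198), while its RNA fell to 19%. Over the 19 genes the RNA and peak changes had a Pearson r of 0.30 and a Spearman rho of 0.42. This describes genes measured in the same libraries, which are not independent replicates. The median RNA change was -2.13 for the 8 genes with a lower peak and -1.62 for the other 11. Starts shared with a gene on the opposite strand make a peak hard to assign: 8 of the 19 members have such a neighbour within 1000 bases, 1 of the 8 called (BLM with CRTC3-AS1) and 7 of the 11 not called, among them FIRRM with METTL18, PALB2 with DCTN5 and FANCB with MOSPD2. BRCA1 and BRCA2 had no peak within reach of a listed start.

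**Figure D4:**
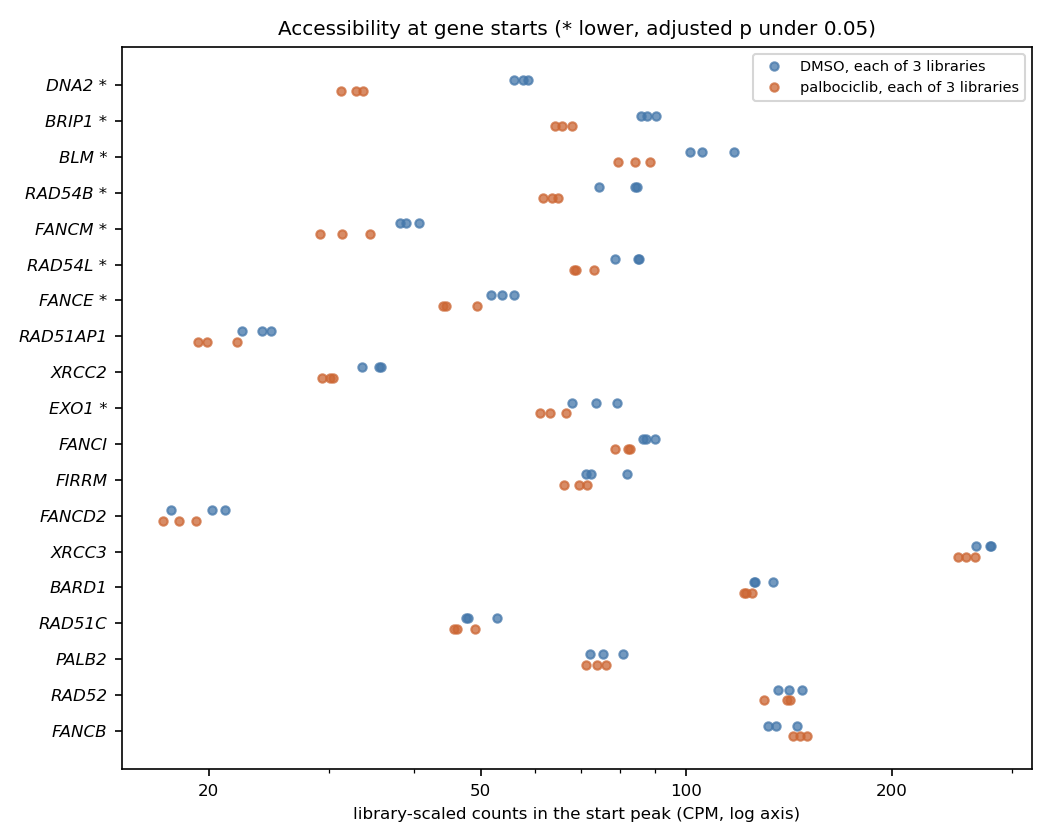
Library-scaled counts (CPM) in the peak at the start of 19 genes (horizontal log axis), 1 point per ATAC library, ordered by log2 change, with a star at the 8 called lower. The groups are apart for DNA2 at the top and overlap for PALB2, RAD52 and FANCB at the bottom.

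In the splicing tables the members had 708 events, of which 233 had enough reads of both forms to be tested, set at 20 reads on average in a library with 5% or more from the rarer form. Of these 1 was called by the edgeR quasi-likelihood test with adjustment over all events, against 0.355% of all 37445 events. An unadjusted p under 0.05 was found for 18 member events (7.73%), against 8.53% of all events, so the members were near the background. By the authors' deposited FDR, 9 of the 233 were under 0.05, against 3.82% of all tested events.

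The called event was in FIGNL1, the gene of the filament-removing ATPase. It sets 2 alternative 5′ splice sites of an exon near the start of the gene against each other (chr7, minus strand, long form 50449118 to 50449723, short form 50449563 to 50449723, gene 50444133 to 50450350). Further 5′ sites of this exon are listed (50449500, 50449545 and 50449556), inside the stretch that only the long form of this pair holds. Reads of those forms may thus be counted with the long form, and the level is not a share of all transcripts of the exon. Levels are scaled for the length of each form, so they differ from plain shares of reads. The long form made up 76.1%, 74.9% and 79.0% with DMSO and 54.4%, 52.2% and 55.8% with palbociclib. The groups did not overlap, and the difference was -22.5 percentage points (adjusted p = 0.048). The mean reads per library behind it were 402 with DMSO and 117 with palbociclib, and the part of the lower FIGNL1 RNA level in this event was not tested. Few of these reads were of the short form: 22, 26 and 16 with DMSO and 16, 16 and 15 with palbociclib. Leaving out any 1 library ended the call (adjusted p from 0.0977 to 0.193), as did testing without the filter on the minor form (0.768). In the authors' deposited table its FDR was 0.00142. The other 7 tested FIGNL1 events were other pairs of sites of the same exon, share reads with it, and were not called (adjusted p from 0.552 to 0.897). Against the same short form, and on the same short-form reads, the forms with sites at 50449500, 50449545 and 50449556 differed by -16.9, -19.3 and -21.4 percentage points, with groups that did not overlap. Pairs without the short form did not show this: the longest form against 50449500 stood at 71.4 ± 6.51% and 59.8 ± 17.6% with overlap (authors' deposited FDR 0.697), and 50449500 against 50449556 at 87.9 ± 4.43% and 96.9 ± 5.30%, also with overlap (authors' deposited FDR 0.00946).

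The next 3 member events by p were not called. For a pair of mutually exclusive exons in FANCD2 (chr3:10063792-10063911 and chr3:10064356-10064429) the first exon's level was 51.3%, 55.6% and 49.7% with DMSO and 65.2%, 66.9% and 68.0% with palbociclib (adjusted p = 0.265), on a mean of 60.3 reads with palbociclib. Its groups did not overlap. For a pair in RBBP8 (chr18:23016828-23016924 and chr18:23022129-23022270) the level was 10.5 ± 3.20% and 7.2 ± 1.51% (adjusted p = 0.276), with overlap. Another tested event listed with the same exon pair had more reads (means of 1534.7 and 2015.7). It stood at 54.5 ± 1.07% with DMSO and 54 ± 0.674% with palbociclib (adjusted p = 0.97). For a skipped exon of FANCL (chr2:58162866-58162932) the level was 98.1 ± 1.66% and 82.8 ± 13.2% (adjusted p = 0.29), and the palbociclib values of 68.0%, 93.2% and 87.4% were widely spread. Its skipping reads were 1, 0 and 1 with DMSO and 9, 2 and 5 with palbociclib. An entry of this exon ending at 58162939 shares these reads (98.2 ± 1.6% and 83.9 ± 12.7%, adjusted p = 0.292). Of these entries only the latter was under 0.05 by the authors' deposited FDR (0.00187).

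**Figure D5:**
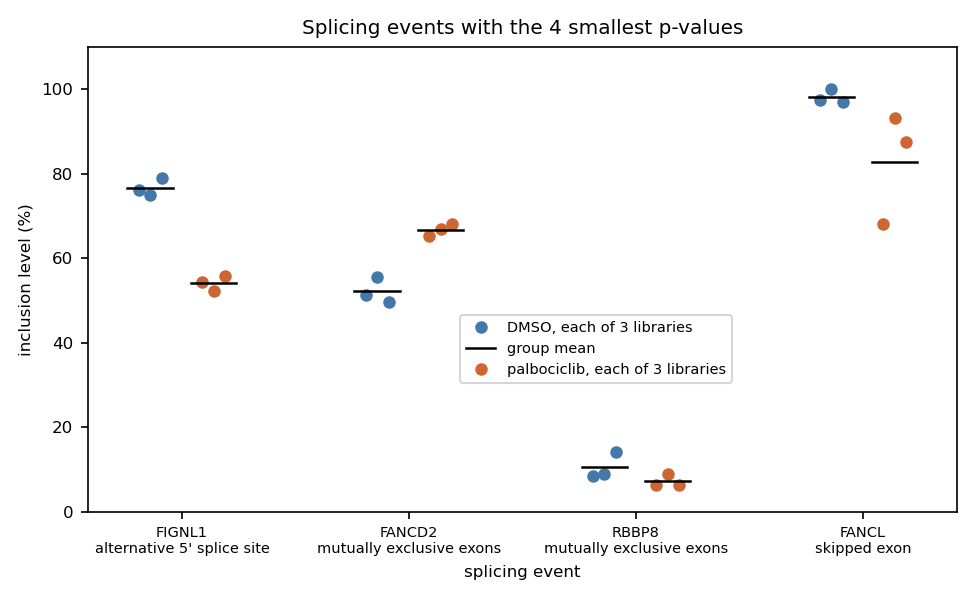
Inclusion level (vertical axis, %) of the 4 member events with the smallest p, 1 point per library and a bar at the group mean. FIGNL1 lies between 74.9% and 79.0% with DMSO and between 52.2% and 55.8% with palbociclib, and the FANCL palbociclib points are the most spread.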

How the data were processed

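RNA, as FPKM, was measured in 6 libraries and ATAC-seq counts in 6, with 3 replicates per treatment. The ATAC labels call these biological replicates and the RNA labels only number them, so RNA p-values measure the spread between these samples, which may be technical. The FPKM were deposited by the authors. Per the file headers, the authors' comparison table gives a mean normalized count (signal), log2 fold changes, their SE, a Wald score and p-values. The splicing tables hold read counts, inclusion levels (used as percent), a difference score and p-values with an FDR, per the file headers. The submitters' processing notes name fastp 0.23.2, Salmon 1.10.2, STAR 2.7.10b and DESeq2 1.44.0 for RNA, Bowtie2 2.5.4-6 and MACS3 3.0.3-0 for ATAC, and GRCh38. Per the file headers, the authors counted deduplicated ATAC alignments in peaks with featureCounts 2.0.6; these counts are taken as reads. The annotation, the strand setting and the rMATS version are not given in the sources used here. FPKM hold no read totals, so the RNA depth behind them is unknown here.

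log2(FPKM + 1) was fitted with limma 3.58.1 (R 4.3.3, trend in intensity) for genes whose mean reached 0.5 FPKM. Peak counts were tested with edgeR 4.0.16 (quasi-likelihood, TMM, filterByExpr), and splicing with edgeR, type by type, on the reads of both forms, with terms for each library and for form by treatment. All p-values are two-sided and adjusted by Benjamini-Hochberg over all features. Each fit was tested on simulated data. Replicate r between treatments at equal numbers was -0.01 to 0.11 in RNA and -0.03 to 0.04 in ATAC, so numbers were not taken as pairs. Starts came from the RefSeq promoter table or, for FANCI, DNA2 and RAD54B, from the gene table with the strand of the splicing tables, and RMI2 had none.

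The members and lists were chosen with earlier results of these data known. Named were all members and other genes called at a log2 change of at least 1 or with the largest rise of a list. Also named were RAD50 and NBN beside MRE11, tested markers not called, every peak at a member start, called events, the 3 next by p and entries sharing exons. The stretches of sequence to print were chosen after the values were seen. Alternatives covered the pseudocount (0.1), filters, normalization, tool, the replicate block and each library left out. An alternative with added gene-table starts was chosen after seeing the data.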

Additional observations from a re-analysis of the deposited data

How the results depend on the processing

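The count of members that fell was 30 or 31 in every alternative run, and 25 to 27 fell by 1 log2 unit or more. The median member change was -2.103 with a pseudocount of 0.1 FPKM, -1.581 with quantile normalization and -2.129 in the authors' deposited table, against -1.641. The smaller pseudocount damps low levels less by construction. With 1 library left out, the median ran from -1.674 to -1.606, the members called higher from 0 to 2 (RBBP8 and RAD52), other recombination and crosslink repair genes called higher from 3 to 7, and member events called with lower inclusion were 0. The last count was 0 also without the filter on the minor form, and the authors' FDR gave 5 with higher and 4 with lower inclusion. The start peak of PALB2 changed sign without DMSO replicate 1 (log2 change from -0.082 to 0.001 over the libraries left out). Peaks called lower ran from 6 to 9, the last with gene-table starts added, an alternative chosen after seeing the data. With a replicate block, which treats equal replicate numbers as pairs, 30 members fell, 2 rose, 8 start peaks were lower and 1 event was called, and the RAD51B call was lost (adjusted p = 0.0686). The other causes were not tested. Of 190 summary values under alternatives 170 kept their direction and size, and of 631 values of single genes, peaks and events 604 kept their direction and call. Low palbociclib levels and few reads limit the precision for BLM, BRCA2 and the FANCD2 event.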

Other observations

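For RAD51B and RBBP8 the gene table gives an outermost start upstream of those in the promoter table. At that start of RAD51B the peak chr14:67819446-67820208 went from 33.96 ± 1.4 to 28.4 ± 2.29 CPM (log2 change -0.26, edgeR adjusted p = 0.0229). At that of RBBP8 the peak chr18:22913764-22914178 stood at 22.9 ± 1.36 and 19.7 ± 4.11 CPM (-0.21, adjusted p = 0.184).

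Peaks away from the listed starts in the members' gene bodies were also measured. Of 46 peaks in 12 members, these 2 included, 26 of them in the long gene RAD51B, 10 were called higher and 2 lower, against 5.41% and 6.46% of all peaks. In BRCA2 a peak at chr13:32381502-32381854 rose by 0.79 log2 units (adjusted p = 0.00126), on 3.77 CPM with DMSO, while BRCA2 RNA fell. In BRIP1 a peak at chr17:61723114-61723610 rose by 0.73 (adjusted p = 0.00639), while the peak at its start fell. In RAD54B 2 peaks rose, by 0.43 (adjusted p = 0.000697) and 0.41 (adjusted p = 0.00457), and the start peak fell. In FIRRM a peak at chr1:169849194-169850047 rose by 0.37 (adjusted p = 0.0262). RAD51B held 5 higher and 2 lower peaks. A peak in a gene body may belong to another gene or an enhancer, and that assignment was not tested.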
